A study of Drosophila melanogaster with 3 samples.

Results

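The genes described here are ush, its nested neighbour cbt, and the GATA factor genes srp, pnr, grn and GATAe, 6 of the 13945 protein-coding genes on the chromosome arms. They were chosen with the strongest peak of the data, which lies in an intron of ush next to cbt, already known. Signals and ranks at that peak are therefore given as a description, with no test. The data are chromatin immunoprecipitation and sequencing (ChIP-seq) peak lists for CG12391-eGFP, a zinc-finger protein with GFP fused to its C terminus, in whole Drosophila melanogaster embryos of both sexes aged 0 to 24 h. The 3 biological replicates form 1 group, and all carry the same stably expressed transgene. An antibody against GFP was used, and the labels name no other genotype, stage or treatment. A whole-embryo sample mixes all tissues, so the lists do not show in which cells a site was bound, and binding in few cells and weak binding in many cannot be told apart.

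GATA factors are zinc-finger transcription factors that bind short DNA words with the core GATA. U-shaped, the product of ush, is the Drosophila member of the Friend of GATA family. It does not itself read the GATA word but attaches to GATA factors such as Pannier and Serpent and changes their activity, mostly towards repression, in the dorsal ectoderm, the notum, the heart and blood cells. Cabut, the product of cbt, is a zinc-finger transcription factor related to the mammalian TIEG proteins and acts in dorsal closure of the embryo and in responses to sugar. Serpent directs blood cell, fat body and endoderm formation, Pannier patterns dorsal tissues and the heart, Grain acts in motor neuron identity and organ shape, and GATAe is an endoderm and midgut factor.

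Every peak with its summit in a gene body or within 5 kb of it was taken, on genome build dm6. This gave 31 of the 8522 peaks in the IDR-thresholded list (irreproducible discovery rate, a measure that compares peak ranks between replicates). It also gave 100 of 30000 pooled peaks, and 106, 101 and 101 of the 30000 peaks of replicates 1, 2 and 3. The 8522 IDR-thresholded peaks were the 8522 pooled peaks of highest signal, so signals and ranks are the same in both lists. Membership of the list thus follows a cutoff on pooled signal, and a single listed peak need not have like ranks in the replicates. Signal is the authors' deposited measure of peak strength, on a scale that no source used here explains. To set replicates side by side, a replicate's signal was divided by the median of its list on the arms, and the quotient is called relative signal. Gene windows overlap. The cbt window lies inside that of ush, and srp and GATAe share 2 IDR-thresholded peaks.

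The sequences under the 3 IDR-thresholded summits nearest upstream of the cbt start site, at 480077, 481066 and 481998, are shown first because they include the strongest peak. The weaker summit at 478922, inside cbt and 766 bp from its start, is not shown. Each is the plus strand of dm6, 50 bp to either side of the summit. Capitals mark the longest run of A and T, or the first of equal runs.
Strongest peak, intron 1 of ush (chr2L:481016-481116): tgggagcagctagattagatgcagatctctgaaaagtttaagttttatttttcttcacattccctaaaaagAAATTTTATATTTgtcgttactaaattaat
cbt promoter (chr2L:480027-480127): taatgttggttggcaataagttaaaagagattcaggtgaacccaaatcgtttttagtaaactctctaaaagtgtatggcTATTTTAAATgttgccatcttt
Farther upstream of cbt, intron 1 of ush (chr2L:481948-482048): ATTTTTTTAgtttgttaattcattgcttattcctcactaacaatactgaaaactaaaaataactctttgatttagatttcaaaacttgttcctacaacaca
The longest run within the window was 13 bases at the strongest summit, 10 at the cbt promoter and 9 at the summit farther upstream of cbt. That last window holds another run of 9, which is not marked, and its marked run starts at the edge of the window. The window of the strongest summit was 72.3% A+T, against 51.0% in its flanks 500 bp away. This was higher than in 59.2% of all IDR-thresholded summits.

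The strongest peak lay upstream of cbt and well inside ush. The gene ush runs on the plus strand of 2L from 476220 to 540560, and cbt runs on the minus strand from 476446 to 479688, inside intron 1 of the transcripts ush-RD and ush-RE. The summit, at 481066, was 1378 bp upstream of the cbt start site, 4846 bp downstream of the first ush start site and 9769 bp upstream of the next. Replicates 1, 2 and 3 gave it signals of 1733, 4879 and 2557, with ranks of 2, 1 and 2 on the chromosome arms. The relative signal was 52.3, 74.7 and 78.3, a mean of 68.5 ± 14.1 (SD, n = 3), so each replicate peak stood at 52.3 times the median of its list or more. With mitochondrial peaks included, the rank in replicate 1 was 13. The replicate summits lay 37, 4 and 24 bp to the right of the pooled summit. At 867 bp the pooled peak was wider than 99.8% of the IDR-thresholded list. The matched peaks in replicates 1, 2 and 3 were 380, 921 and 441 bp wide, beside list medians of 356, 476 and 360 bp. Only that of replicate 2 was as wide as the pooled peak. The peak list gives no means of assigning the site to cbt or to ush.

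Further peaks flanked it. The cbt promoter peak (summit 480077, 389 bp upstream of the cbt start) had signals of 519, 1473 and 744 in replicates 1, 2 and 3. Its ranks were 160, 218 and 149, its pooled signal was 2714 at rank 173, and its relative signal was 20.3 ± 4.04 (SD, n = 3). The third summit, at 481998, had relative signals of 6.25, 7.39 and 8.39 in replicates 1, 2 and 3. In each replicate the strongest peak was highest, the cbt promoter peak next and the third summit lowest, and the ranges of the 3 sites did not overlap. A weaker peak at 478922 fell in the 5′ UTR of a cbt transcript, with a signal of 271.6 and ranks of 3579, 12004 and 6528. The matched replicate 2 summit lay 200 bp away, next to a pooled summit at 479123. The cbt window also held a peak at the promoter of the neighbour CG4297, with a pooled signal of 1330.

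**Figure D1:**
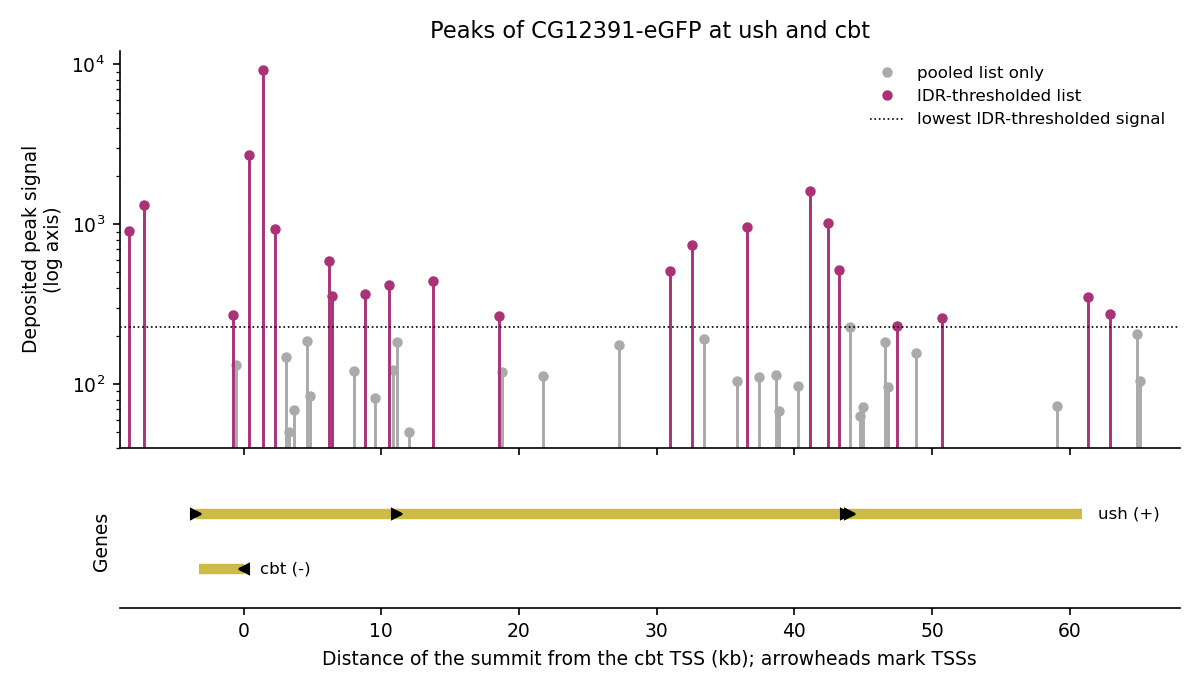
Deposited signal of each pooled peak (log axis) against the distance of its summit from the cbt TSS, with the gene bodies of ush and cbt below. The signal of 9277 stands just right of the cbt TSS, and a second group of IDR-thresholded peaks precedes the internal ush TSSs at 43.8 and 44.0 kb.

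The ush window held 22 IDR-thresholded and 51 pooled peaks, and 52, 55 and 57 peaks in replicates 1, 2 and 3 (54.7 ± 2.52, SD, n = 3). Of the 22, 18 had their summit inside ush, and 14 were classed as intronic. Of the 13945 genes, 2 had more IDR-thresholded peaks in the same window, kirre with 33 and CG1677 with 25. Both have longer windows (404 and 135 kb, against 74.3 kb for ush), and 1.41% of genes have a window longer than that of ush. Per 10 kb the ush window held 2.96 IDR-thresholded summits, where the median gene had 0.827, and 5.46% of genes had a higher density. The median signal of the 22 peaks was 516, beside 447 for the whole list, and 12 of them lay above that median.

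**Figure D2:**
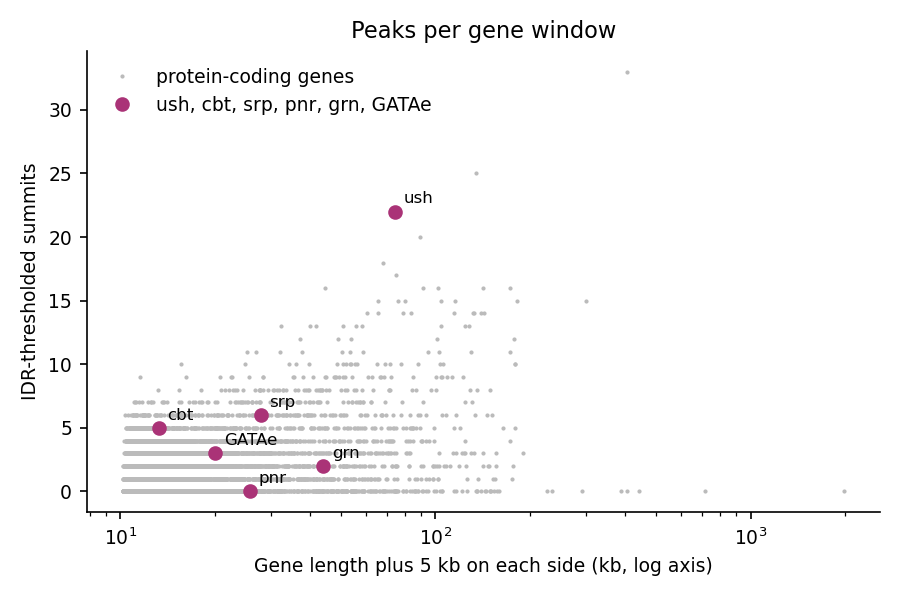
IDR-thresholded summits per protein-coding gene (grey dots) against the length of the gene window in kb, on a log axis, with the 6 genes in purple. The ush point, at 22 summits, lies near the upper edge for its window length, while pnr is at 0.

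Start sites of ush itself carried weaker peaks than the cbt side. The nearest pooled summit to the first start site, used by ush-RD and ush-RE, was the weak one at 478922, 2702 bp away. The start of ush-RB had an IDR-thresholded summit 551 bp away (signal 415) and a pooled summit 31 bp away (signal 183.2). The internal starts of ush-RA and ush-RC, at 523466 and 523736, followed a group of peaks at 516259, 520841, 522125 and 522970. The strongest of these, at 520841, had signals of 349.6, 854.7 and 414.5 in replicates 1, 2 and 3, with ranks of 385, 728 and 498 and a relative signal of 12.1 ± 1.37 (SD, n = 3). The summit at 522125 had a relative signal of 7.74 ± 1.09, and that at 516259 of 7.13 ± 1.12 (SD, n = 3). The relative signals at 520841 lay above those at 522125 and 516259 in every replicate, and the ranges of the latter pair overlapped each other. A pooled summit 30 bp from the ush-RC start had a signal of 226.8 and rank 8531, just below the lowest IDR-thresholded signal of 227.2. The nearest member peak above that limit, also in ush, had a signal of 232.7.

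Other ush peaks were of moderate strength. The summit at 512259 had relative signals of 3.98, 5.74 and 7.24, and that at 485914 of 3.08, 4.21 and 6.70. The peak at 486140 shares its matched replicate peaks with the one at 485914 in replicates 1 and 2, so the pair is not independent. At the edges of the window, summits lay in the 3′ UTR and at the promoter of lwr, which encodes a SUMO-conjugating enzyme, with signals of 350.6 and 275.2. The outermost IDR-thresholded summit inside the window was 4864 bp from ush (signal 912.4, at CG4297), and the next one out was 5530 bp away (signal 565.1).

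The GATA factor genes had weaker peaks. Counting ush and cbt, 5 of the 6 genes had an IDR-thresholded summit in their window, beside 63.9% of all protein-coding genes, and 4 of 6 (ush, cbt, srp and GATAe) had one within 500 bp of a TSS, beside 34.4% of all genes. These 4 summits lay 496, 389, 401 and 480 bp from the start site, so none of the 6 genes had an IDR-thresholded summit closer than 389 bp. With pooled peaks, 6 of 6 had a summit in the window, beside 76.7% of all genes, and 6 of 6 had one within 500 bp of a TSS, where 52.2% of all genes did. With this few genes, chosen with these peaks in view, the counts do not set the group apart from other genes. Of the 9 IDR-thresholded peaks at srp, GATAe and grn, 3 had a signal above the median of the list.

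The gene srp, on the plus strand of 3R from 15986152 to 16004085, had 6 IDR-thresholded peaks. The strongest pair lay upstream of its first start site. The summit at 15984577, 1575 bp upstream, had signals of 131.2, 377.3 and 153.0 in replicates 1, 2 and 3, with ranks of 2472, 2662 and 2771. These ranks lay close together, and the relative signal was 4.81 ± 0.915 (SD, n = 3). The summit at 15983732, 2420 bp upstream, had relative signals of 4.08, 3.09 and 3.64, with ranks of 2346, 5631 and 3881. Replicate 1 was highest for this summit and lowest for the other, so the order of the pair differed between replicates. A further pair, at 15993540 and 15993739, lay in intron 2 of srp-RD. The first was classed as another exon, since it overlaps lncRNA:CR44133, and the second as a promoter, 401 bp from the internal start of srp-RA. The pair shared the matched peaks of replicates 2 and 3, and the second had no overlapping peak in replicate 1. The srp count within 500 bp of a TSS rests on this second peak. Of the 31 peaks, it was the one not found in all 3 replicate lists. The intervals at 15993540 and 15993739 overlap, and the relative signals at the first were 1.25, 3.75 and 1.62, highest in replicate 2. The matched summits were shifted by -203, 37 and 89 bp from the pooled one, so these values may not belong to 1 site.

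GATAe, from 16009105 to 16019133 on 3R, had 3 IDR-thresholded peaks, of which 2 lay between it and srp. The strongest, at 16006102 in an intron of lncRNA:CR42839, had signals of 64.5, 155 and 91.3 in replicates 1, 2 and 3 and a relative signal of 2.37 ± 0.424 (SD, n = 3). The summit 480 bp upstream of the internal start of GATAe-RA, at 16011794, had signals of 54.0, 95.9 and 99.8 and ranks of 8415, 11125 and 4832. Replicate 3 ranked this site well above replicate 2. The first start sites of GATAe and srp had only pooled peaks nearby, 343 bp away with a signal of 117.8 and 409 bp away with a signal of 59.2.

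Next to it, pnr had no IDR-thresholded summit in its window. It lies on the plus strand of 3R from 16026079 to 16041796, inside a stretch of 37.8 kb between the summits at 16011794 and 16049581, and 8.07% of such gaps on the arms were longer. The pooled list held 8 peaks in the pnr window. The one at its first start site, 5 bp away, had a pooled signal of 161.3 and rank 11382. It was matched in replicate 1 (signal 68.7, rank 6318) and in replicate 3 (47.6, rank 10601) but not in replicate 2. The strongest, beyond the 3′ end at 16042415, had signals of 27.2, 111 and 48.1 and ranks of 19165, 9810 and 10469. Its nearest TSS was that of the neighbour Jhbp4, 1083 bp away, while the nearest pnr start was 7829 bp away. The matched replicate 1 summit lay 163 bp from 16042415, nearer to a weaker pooled summit at 16042680 (shift -102 bp). Replicate peaks numbered 10, 4 and 7 in this window.

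**Figure D3:**
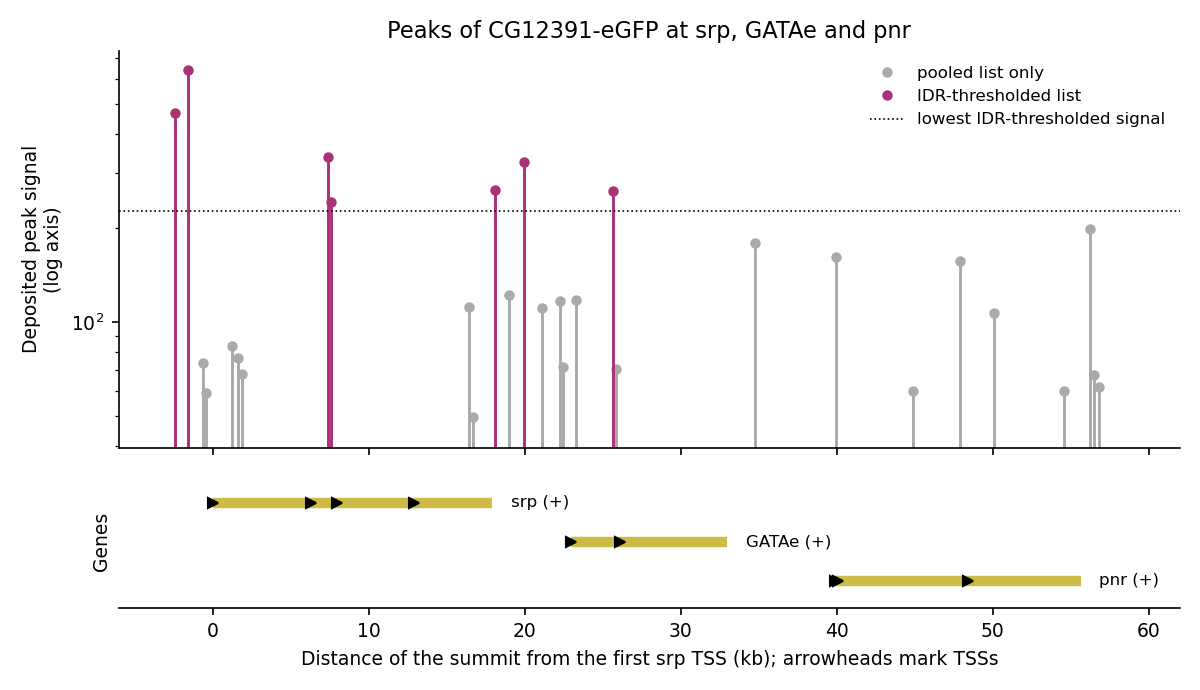
Deposited signal of each pooled peak (log axis) against the distance of its summit from the first srp TSS, with the gene bodies of srp, GATAe and pnr below. IDR-thresholded peaks reach from upstream of srp into GATAe, and those around pnr remain under the lowest IDR-thresholded signal.

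The gene grn, on the minus strand of 3R from 8147368 to 8181444, had 2 IDR-thresholded peaks among 20 pooled ones, both intronic. The summit at 8171702, in intron 2 and 9742 bp from the start site, had signals of 107.6, 322.9 and 176.4 and ranks of 3389, 3216 and 2245. The relative signal was 4.53 ± 1.14 (SD, n = 3). The summit at 8180606, in intron 1 and 838 bp from the start, had a relative signal of 2.39 ± 0.173 (SD, n = 3), below that of the other summit in each replicate. The start site itself had a pooled peak 138 bp away with a signal of 158.2, outside the IDR-thresholded list.

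Ordered by the relative signal of the strongest peak, the genes ran from ush and cbt, which share it, through srp (3.96 to 5.78), grn (3.25 to 5.40) and GATAe (1.95 to 2.80) to pnr (0.820 to 1.70). The ranges of srp and grn overlapped, so their order is not settled by 3 replicates. The other neighbours in this order did not overlap. The pnr value of 0.820 came from replicate 1, whose matched summit lay 163 bp from the pooled one. That peak is in the pnr window but nearest to the TSS of Jhbp4. No test was made of the order, since the genes were chosen with it known.

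**Figure D4:**
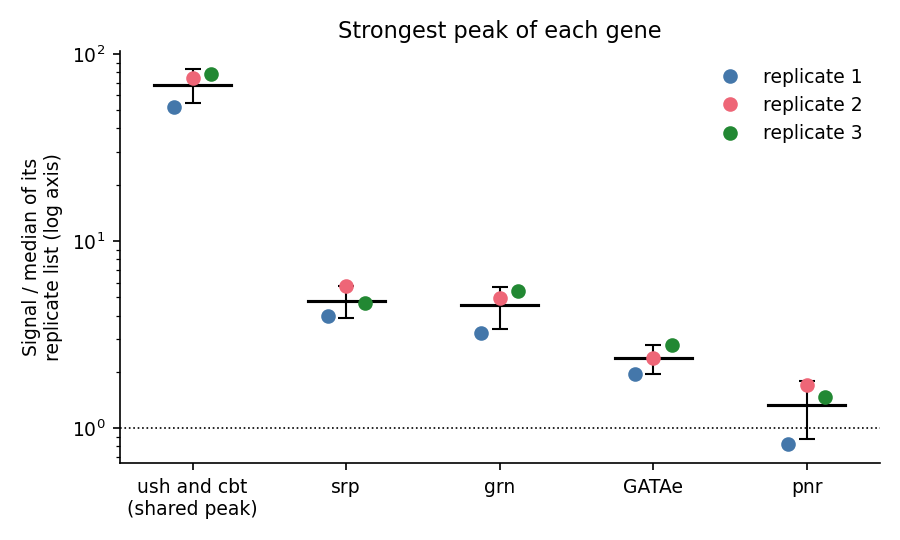
Relative signal (log axis) of the strongest peak of each gene in replicates 1, 2 and 3, with the mean (line) and SD (bar). The shared peak of ush and cbt, with a mean of 68.5, is far above srp (4.81), grn (4.53), GATAe (2.37) and pnr (1.33).

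Support by the replicates was like that of the whole list. Of the 31 peaks, 30 were overlapped by a peak in every replicate, or 96.8%, beside 97.0% of all IDR-thresholded peaks. Among the 8522 highest-ranked replicate peaks the share was 21 of 31, or 67.7%, beside 69.2%. Matched ranks of single weak peaks could lie far apart, as at 478922 in the cbt 5′ UTR. At 541055 in lwr they were 2479, 6949 and 4639. In replicate 2 the matched summits were shifted by 200 and -264 bp from these, so the ranks may not belong to 1 site. Of the 100 pooled peaks, 62 were matched in every replicate and 1 in none. The same shares over all pooled peaks are not given here, so these counts do not set the 100 apart from other pooled peaks.

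**Figure D5:**
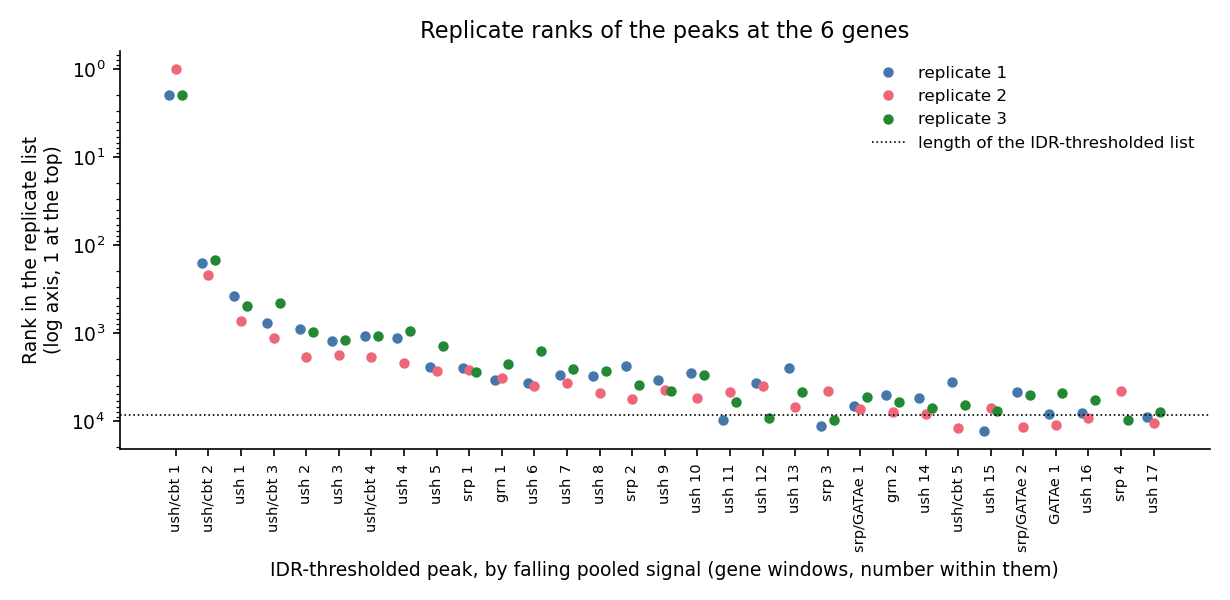
Rank in the 3 replicate lists (log axis, rank 1 at the top) of the 31 IDR-thresholded peaks at the 6 genes, ordered by falling pooled signal. The first peak ranks 2, 1 and 2, and 1 peak at srp has no replicate 1 point. The points of some of the weaker peaks, but not all, cross the dotted line at rank 8522 in 1 or more replicates.

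Away from start sites, introns held most of these peaks. Of the 31 IDR-thresholded summits, 17 were intronic (54.8%, beside 33.1% of the whole list) and 7 were at promoters (22.6%, beside 49.4%). A further 3 were intergenic (9.68%, beside 15.4%). None lay in a coding exon, where the whole list had only 0.0939%. The remaining 4 were 2 in a 5′ UTR (beside 0.399%), 1 in a 3′ UTR (beside 0.739%) and 1 in another exon (beside 0.904%). The median distance to the nearest TSS was 1591 bp, beside 533 bp in the whole list. Of the 7 promoter summits, 4 were nearest to a start site of the 6 genes, and the other 3 belonged to CG4297 and lwr. Most of the peaks lie in ush, whose introns reach 49060 bp, and intron length was not taken into account.

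GATA words were looked for because U-shaped works through GATA factors. The word AGATAA, its variant AGATAG that ends in G, the word TGATAA and its variant TGATAG that ends in G were searched on both strands. At least 1 of them occurred within 50 bp of 11 of the 31 summits, or 35.5% (95% exact Clopper-Pearson interval 19.2 to 54.6, which covers counting error alone). The interval treats the summits as independent draws, but 22 of the 31 lie in the ush window. The genes were also chosen with the data known, so the interval cannot decide whether this share differs from that of other peaks. In the whole list, these peaks included, the words occurred at 23.8% of summits. Flanking windows 500 bp away held them in 25.8% of cases at these genes and 15.6% of cases in the whole list. The strongest summit, the cbt promoter and the third summit beside cbt had none within 50 bp. The summit at 478922, inside cbt, had 1. Windows with the word, chosen from the stronger ush peaks and from srp and grn, are shown with the word in capitals, as the plus strand of dm6.
ush, before the internal start sites (chr2L:520791-520891): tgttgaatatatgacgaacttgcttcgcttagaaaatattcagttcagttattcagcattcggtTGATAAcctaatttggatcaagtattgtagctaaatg
ush, nearer to the internal start sites (chr2L:522075-522175): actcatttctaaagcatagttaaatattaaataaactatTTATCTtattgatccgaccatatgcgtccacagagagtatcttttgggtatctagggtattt
srp, nearer upstream summit (chr3R:15984527-15984627): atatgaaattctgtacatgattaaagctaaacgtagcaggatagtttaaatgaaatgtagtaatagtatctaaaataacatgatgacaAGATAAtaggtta
srp, farther upstream summit (chr3R:15983682-15983782): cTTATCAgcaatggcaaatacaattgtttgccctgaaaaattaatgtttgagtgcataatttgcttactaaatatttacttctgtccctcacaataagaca
grn, intron 1 (chr3R:8180556-8180656): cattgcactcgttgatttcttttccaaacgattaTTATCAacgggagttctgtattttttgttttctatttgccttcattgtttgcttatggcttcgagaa
TTATCA and TTATCT are the reverse complements of TGATAA and AGATAA. Each of these windows holds 1 such word, and a match is not evidence that a factor was bound there.

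Each of the other words searched was at 7 of the 31 summits or fewer. TATCGATA, the word bound by DREF and BEAF-32, was at 1 of 31 summits, the lwr promoter, beside 2.41% in the whole list. CGATA, which is part of TATCGATA, was also at 1 of 31, beside 16.4%. GAGAG, the core of the GAGA factor word, was at 3 of 31 summits beside 8.03%, AAAAAA at 7 beside 28.5%, and TTTAAA at 3 beside 23.6%. GGTCACACT, CATCNCTA and CACACA were at none, beside 1.17%, 1.56% and 5.73%. Each was searched on both strands, and nothing about the factors follows from a missing word.

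A+T content was higher at the summit than in its flanks at 25 of 31 peaks, beside 85.2% of the whole list. The median window was 67.3% A+T, beside 70.3% in the whole list, with 55.4% in the flanks of both. A window low and a window high in A+T are shown, with GATA words in capitals, because they differ widely in composition. The lowest A+T of the 31, 43.6%, was at 485914 in ush, which is not shown.
ush, CT-rich window (chr2L:510638-510738): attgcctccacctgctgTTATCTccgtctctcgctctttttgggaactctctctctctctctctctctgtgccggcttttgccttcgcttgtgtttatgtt
srp, A and T-rich window (chr3R:15993689-15993789): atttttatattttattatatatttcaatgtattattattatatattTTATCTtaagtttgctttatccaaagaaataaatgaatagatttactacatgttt
The ush window was 50.5% A+T, at percentile 4.26 of the whole list, and its CT repeats give 10 overlapping matches to GAGAG on the other strand. The srp window was 86.1% A+T, at percentile 99.3.

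The fifth GATA gene of the fly, GATAd on 2L, was described beside the others. It had 6 IDR-thresholded peaks in its window, of which 2 were nearest to its own start sites. Its start site peak, 1 bp away, had a signal of 324.9 at rank 6013, and an intronic peak had a signal of 418.6. The stronger peaks in its window, with signals of 704, 684.3 and 483.4, were at the promoters of the neighbours Cox10, SamDC and CG31715.

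The genes whose strongest window peak ranked most alike in the 3 replicates were found by the Euclidean distance of log10 ranks. For ush and cbt these were CG11050 and DIP-iota, which share an intronic peak of CG11050 (distance 0.461), and CG14100 (0.591). At ranks so near the top a different peak cannot lie within 0.1, so no such count is given for ush and cbt. For srp they were fne (0.0236), corn and mmy, for grn Rhau and dia, which share a peak, and capt, and for GATAe dve (0.0211), CG30196 and CCT1. For pnr they were zen (0.0569), CG13324 and CG14811. For srp 98, for pnr 30, for grn 50 and for GATAe 126 of 10294 to 10297 genes lay within 0.1, so the genes named are a few among many alike. Likeness here rests on 3 ranks alone.

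Genes that act in the same processes were listed in the same way. Of 21 blood cell genes 13 had an IDR-thresholded summit in their window (61.9%) and 4 within 500 bp of a TSS (19.0%), the strongest of these at PPO3 (signal 1217, nearer to the TSS of CG9890), the receptor gene N (595.9) and the corepressor gene CtBP (387.1, nearer to CG8031). Over all genes these shares were 63.9% in the window and 34.4% at a TSS, against which the counts of each list that follows can be read. Of 13 heart and dorsal mesoderm genes 8 had one in the window and 1 at a TSS, tin, the heart homeobox gene (signal 2250). Of 14 proneural and notum genes 11 had one in the window and 4 at a TSS, the strongest at emc (394), hry (362.1) and Bx (327.2).

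Amnioserosa and dorsal closure genes, taken as 1 list, were found with a summit in the window in 12 of 15 cases and at a TSS in 7 (46.7%). The strongest were at egr, a TNF ligand (signal 649.9), puc, a phosphatase of the JNK pathway (443.7), and kay, which encodes Fos (383.8). Of 10 circadian clock genes 8 had one in the window and 5 at a TSS, led by the kinase gene sgg (2398) and the transcription factor genes vri (1566) and Pdp1 (1306). Of 9 endoderm and gut genes 5 had one in the window and 2 at a TSS, Ance (376.8) and fkh (356.3). Of 8 Sp and Krüppel-like factor genes, the wider family of cbt, 4 had one in the window and 1 at a TSS, CG3065 (605.3). The shares in the window lay on both sides of the 63.9% of all genes, from 4 of 8 to 8 of 10, and the shares at a TSS on both sides of the 34.4% of all genes, from 1 of 13 to 5 of 10. The lists were small.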

How the data were processed

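ChIP-seq peaks of CG12391-eGFP were deposited for 3 replicates, as 1 list per replicate, 1 pooled list and 1 IDR-thresholded list. Per the deposited file lists, each replicate was called against a control shared by all 3, on dm6, and the thresholded list was made from the other 4. Aligner, peak caller, versions and thresholds are not given in the sources used here. Fragments were sonicated to 200 to 800 bp, per the labels. The deposited signal of each peak was used as it stands, as were the deposited summit offsets, which are positions in bp and no measurement (other unit). List length is fixed at 30000, so it gives no depth, and depth per library is unknown.

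The genome was Release 6, which shares dm6 coordinates, with the gene models of Ensembl release 115. Symbols were matched as given, with h found as hry through RefSeq synonyms. Distances were taken to TSSs of genes other than transposable elements and pseudogenes. A summit within 500 bp of a TSS was classed as promoter. Otherwise the first match was taken among 5′ UTR, coding sequence, 3′ UTR, exons of other kinds, introns and intergenic space. A replicate peak matched at an overlap of at least 1 bp, and the strongest was taken. Ranks cover the chromosome arms, without the 22 mitochondrial peaks found in replicate 1. Named genes were the 6 genes, GATAd, the 3 genes nearest in replicate ranks to each, and up to 3 genes per related list by signal at a TSS. Members, lists and words were chosen with earlier results of these data known, and no test was run. Python 3.11.15, pandas 2.3.3 and NumPy 2.4.6 were used, and peak assignment was tested on simulated data.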

Additional observations from a re-analysis of the deposited data

How the results depend on the processing

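Of 39 alternative values 26 stayed within 1.5 times the count, the replicate SD or the interval of the value reported. With the IDR-thresholded list restricted to peaks above its median signal, 15 peaks remained at the 6 genes, 15 were overlapped in every replicate, 7 summits had a GATA word, and 48.0% of all genes had a peak in the window. The share of all genes was 16.3% for gene bodies alone, 50.7% within 2 kb and 75.1% within 10 kb. Reciprocal overlap of at least 50% left 19 peaks found in every replicate. The share of the whole list under this rule was not computed, so the drop cannot be called particular to these peaks. Leaving out a replicate gave 30 to 31 overlapped peaks and a mean relative signal of the strongest ush peak of 63.5 to 76.5. Divided by the 99th percentile of its list in place of the median, that peak stood at 4.38, and divided by the mean at 33.1, which follows from the larger divisor. Promoter summits numbered 2 under a narrower distance to the TSS, at CG4297 and lwr and at none of the 6 genes, and 11 under a wider one, in place of 7. Depth is unknown, so absence of a peak, as at pnr, is absence from these lists at their fixed length. No paired analysis was possible because there is 1 group.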
